A study of Danio rerio with 4 samples.

Results

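Simple repeats are tracts in which a short unit of DNA is copied head to tail. The deposited repeat table names each kind by its unit in round brackets followed by n, so that (AT)n stands for alternating A and T. The repeats described here are those whose unit holds only A and T, which is 449 of the 11258 names in the table. Another 9686 names are simple repeats with C or G in the unit, and 1123 are names that are not simple repeats, such as transposons, satellites and transfer RNA. Units ran from 1 to 10 bases, and 289 of the 449 names had at least 1 read in some library. The libraries are total RNA, depleted of ribosomal RNA, from pools of 10 to 20 zebrafish larvae at 5 days after fertilisation (120 h). They are labelled as whole larvae. There were 2 libraries of uhrf1(hi272) mutants and 2 of their siblings, told apart by appearance, so that the siblings were normal to look at and their own genotype is given only as sibling. Larvae came from 2 independent clutches, which the labels do not tie to replicate numbers.

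Uhrf1 binds newly replicated DNA and brings the maintenance methyltransferase Dnmt1 to CpG sites that carry methylation on the parent strand only. A tract of A and T holds no CpG, so its own bases cannot carry that mark, although the DNA around it can. Tracts of A and T arise by slippage of the polymerase and from the poly(A) tails of retrotransposed sequences, and they are common in introns, in untranslated regions and between genes. Reads in them can therefore come from many kinds of transcript.

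Repeat reads outnumbered gene reads in every library. The mutant libraries held 9671737 and 10559130 repeat reads beside 571978 and 564941 gene reads, and the sibling libraries held 2108906 and 1611818 repeat reads beside 613370 and 812167 gene reads. The uhrf1 gene itself had 7 and 9 reads in mutant larvae and 2 and 17 in sibling larvae, too few to check the labels. Of 8 hepatocyte markers, 2 had no read in the mutants, and together they took 0.0341% and 0.0191% of gene reads in mutants against 7.08% and 5.81% in siblings. Of 7 skeletal muscle markers, 5 were matched by symbol, and they took 3.27% and 2.90% of gene reads in mutants against 0.0119% and 0.00616% in siblings. The sibling share of muscle reads is unexpectedly low for whole larvae, as the pools are labelled, and its reason was not tested. Tissue makeup and genotype cannot be told apart here, nor can fewer cells of a type and less RNA per cell. The part of these markers' tissues in the results that follow was not tested. Levels below are CPM, in which the reads of a name are scaled to the gene reads of the same library after TMM normalisation. The authors' table gives no number or length of copies for a name, so levels of different names are not per length.

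The units that the results turn on are written out below as 3 copies in tandem, 5′ to 3′, with the first copy in capitals. They are the units given by the table's names, not sequences of a genomic position, which were not analysed here. The first 2 spell the same tract from opposite strands, the next 3 spell another tract from different starting bases, and so do each of the 2 pairs that follow. The last is the other name that stood above the repeats as a whole.
Largest rise, named (TAATAA)n: TAATAAtaataataataa
Opposite strand of the same tract, named (TTATTA)n: TTATTAttattattatta
Largest fall, named (AATTAT)n: AATTATaattataattat
Rotation that rose most, named (TTATAA)n: TTATAAttataattataa
Another rotation that rose, named (TAATTA)n: TAATTAtaattataatta
A fall in a unit with more T, named (TATTTA)n: TATTTAtatttatattta
A rotation of it that rose, named (TTTATA)n: TTTATAtttatatttata
Smallest fall, named (TAAT)n: TAATtaattaat
A rotation of that unit that rose, named (TTAA)n: TTAAttaattaa
Other rise relative to all repeats, named (TATATAA)n: TATATAAtatataatatataa

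The A/T-only names were read about as often, as a share of repeat reads, in both groups. They held 198132 and 209765 reads in mutant larvae and 39511 and 36130 in sibling larvae. Of all repeat reads, this was 2.05% (Wilson 95% interval 2.04% to 2.06%) and 1.99% (1.98% to 2.00%) in mutants, against 1.87% (1.86% to 1.89%) and 2.24% (2.22% to 2.26%) in siblings. The mutant values lay between the sibling values, and the means differed by -0.0400 percentage points (exact two-sided permutation test, p = 1). Without sibling replicate 2 the difference was 0.144 points. These intervals cover counting error only.

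Among simple repeats alone the share of A/T-only reads was higher in the mutants. It was 20.6% (Wilson 95% interval 20.5% to 20.7%) and 19.9% (19.8% to 20.0%) in mutants, and 17.8% (17.6% to 17.9%) and 14.1% (14.0% to 14.2%) in siblings. Both mutant libraries stood above both sibling libraries, by 4.33 percentage points on average (exact two-sided permutation test, p = 0.333, the smallest that 2 against 2 libraries can give). The difference was 2.50 points without sibling replicate 2, 6.17 points without sibling replicate 1 and 2.07 points without the 1-base units. Simple repeats with CpG in the unit ran the other way, at 2.92% and 2.88% of simple repeat reads in mutants against 3.84% and 4.88% in siblings. These shares are parts of a whole, so a higher A/T-only share lowers the rest. Per repeat read, the ratio of mutants to siblings was 0.49 with CpG and 0.72 for the other simple repeats without CpG. The direction was therefore not particular to units with CpG. All simple repeats together took 9.95% and 9.97% of repeat reads in mutants and 10.5% and 15.9% in siblings. Per repeat read, the ratio of mutants to siblings was 0.98 for A/T-only names and 0.71 for the other simple repeats. On these means the higher share went with fewer reads of the other simple repeats, while A/T-only reads per repeat read were about level. Both the 0.71 and the level A/T-only mean rest largely on sibling replicate 2. All simple repeats took 15.9% of repeat reads there, against 10.5% in sibling replicate 1. The A/T-only names took 2.24% of repeat reads in sibling replicate 2. In sibling replicate 1 they took 1.87%, below both mutant libraries (2.05% and 1.99%).

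Relative to gene reads, the summed level of the A/T-only names was about 2-fold higher in mutants. It was 214943 and 225149 CPM in mutants and 106819 and 99758 CPM in siblings, or 220046 ± 7217 CPM in mutants and 103289 ± 4993 CPM in siblings (mean ± SD, n = 2 each), a ratio of 2.13. The groups did not overlap (exact two-sided permutation test on log2 values, p = 0.333, the smallest possible). The ratio was 2.15 for all repeat names, 1.57 for the other simple repeats and 2.22 for names that are not simple repeats. Scaled by total gene reads without TMM factors, it was 6.59 for the A/T-only names and 6.56 for all names, so the size of the rise rests on how the gene reads are scaled.

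**Figure D1:**
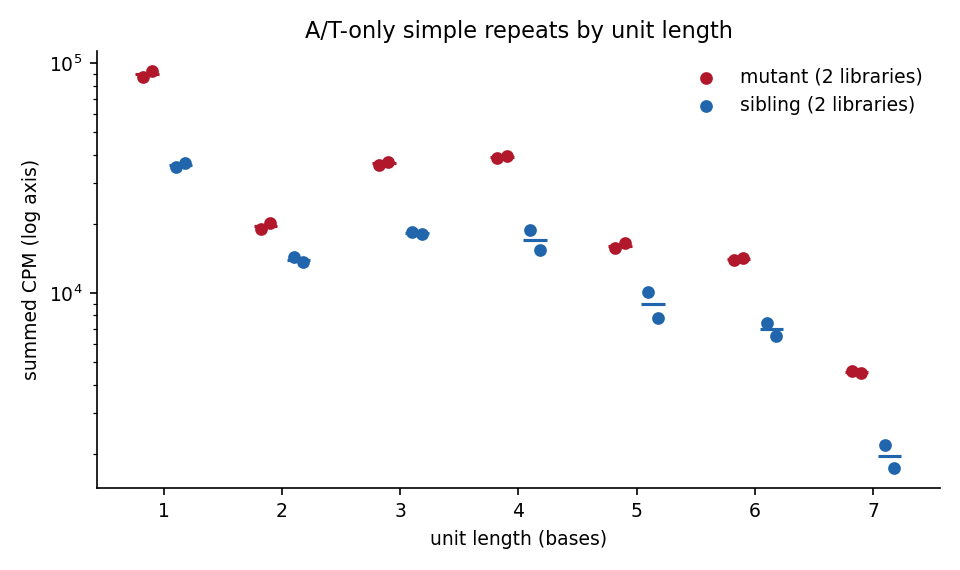
Summed CPM of A/T-only names (vertical axis, log scale) by unit length in bases (horizontal axis) in each of the 2 mutant and 2 sibling libraries, with group means as short horizontal lines. Mutant libraries lie above sibling libraries at each length from 1 to 7, by least at length 2, where means were 19564 CPM in mutants and 14000 CPM in siblings.

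Name by name, 179 of the 449 had enough reads to be tested, and they held 99.8% of the A/T-only reads. Of these, 123 rose in mutants, 5 fell and 51 did not pass (quasi-likelihood test of edgeR, p under 0.05 after Benjamini-Hochberg adjustment). Over all names 81.0% passed. The rises made up 68.7% of the names tested, where 76.7% of all 3366 repeat names tested rose, and the falls made up 2.79%, where 4.25% of all names fell. Of the 123 that rose, 119 did so by at least 2-fold, 52 by at least 4-fold and 6 by at least 10-fold. The like counts over all names were not worked out, so these sizes do not set A/T-only names apart. Names with few sibling reads could also pass the count filter for testing through the mutant libraries alone. The number of rises and their sizes are therefore not independent of that filter. Over all names tested the median change was 3.94-fold, above the 2.94-fold of the A/T-only names tested. The median log2 fold change was 1.56 over the A/T-only names tested, against 1.98 over all names and 2.04 over the other simple repeats, and 127 of 179 lay below the median of all names. Over simple repeats with CpG in the unit the median was 2.05. In 148 of the 179, both mutant libraries lay above both sibling libraries, which held for 85.7% of all names tested, and in 10 both lay below, against 5.91% of all names. Without mutant replicate 1, 56 rose and 2 fell of 171 tested (45.3% and 1.67% of all names), and without mutant replicate 2, 59 rose and 2 fell of 174 (42.2% and 1.79% of all names). Without sibling replicate 1, 143 rose and 4 fell of 194 (72.0% and 3.69% of all names), while leaving out sibling replicate 2 gave 131 that rose and 9 that fell of 195 (69.6% and 4.34% of all names). With total gene reads as the scale, 178 rose and 1 fell of 186 (94.4% and 0.809% of all names).

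**Figure D2:**
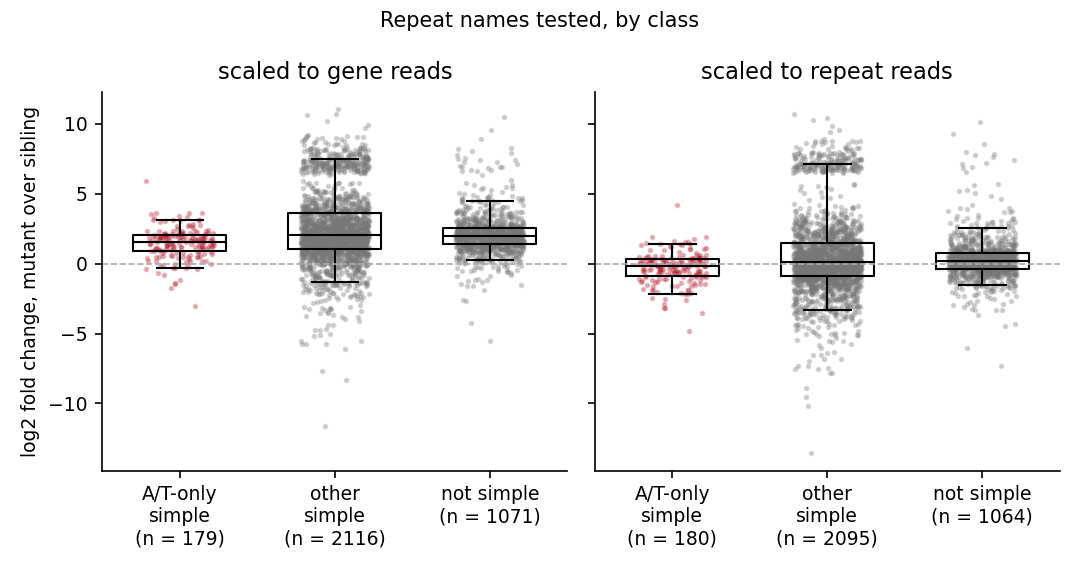
Log2 fold change of mutant over sibling (vertical axis) for each repeat name tested, by class, scaled to gene reads (left) and to repeat reads (right). Boxes show the median and quartiles and whiskers the 5th to 95th percentile. A/T-only names centre at 1.56 on the left and -0.19 on the right, and their SD of 1.12 on the left is below the 2.59 of the other simple repeats.

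The names nearest the median rose too. The name (TTAAA)n had 62 and 80 reads in mutant larvae and 16 and 3 in sibling larvae, a log2 fold change of 1.56 (edgeR, adjusted p = 0.0321). The name (ATTAATA)n had 63 and 41 reads in mutant larvae and 9 and 5 in sibling larvae, a log2 fold change of 1.55 (edgeR, adjusted p = 0.0254). Both calls were lost without mutant replicate 1 and without mutant replicate 2 (edgeR, adjusted p between 0.137 and 0.404), and that for (TTAAA)n without sibling replicate 2 (0.85, adjusted p = 0.0794), while without sibling replicate 1 it was at 3.22. With no count filter both were lost (adjusted p = 0.180 for (TTAAA)n and 0.0873 for (ATTAATA)n), and with DESeq2 that for (ATTAATA)n (adjusted p = 0.0545).

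The fold changes of A/T-only names were also closer together than those of the other simple repeats, with an SD of 1.12 against 2.59. Names with few reads had the larger medians, among A/T-only names and among all others. The count filter works by group, so a name with few reads can be tested through the mutant libraries alone. These medians are therefore not independent of the filter. Over A/T-only names with under 100 reads in the 4 libraries the median log2 fold change was 2.00 (38 names), with 100 to under 1000 reads it was 1.62 (100 names), and with 1000 or more it was 1.22 (41 names). The medians of all other names in those ranges were 2.61, 2.04 and 1.79. At unit lengths of 1, 2 and 3 bases the A/T-only medians were 1.298, 1.27 and 1.15, against 1.20, 1.22 and 1.17 in other simple repeats of the same length. At 4, 5, 6 and 7 bases they lay 0.42, 0.60, 0.27 and 0.69 lower. At these 4 lengths the tested A/T-only names had more reads, with medians of 3280, 812, 391 and 118 against 491.5, 140, 122 and 68. Neither these differences nor the SD therefore compare names with like numbers of reads.

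The poly(T) and poly(A) names, which spell the same tract from opposite strands, held the most reads and both rose. The name (T)n had 50421 and 54103 reads in mutant larvae and 8025 and 7845 in sibling larvae. In CPM this was 56385 ± 2384 in mutants and 21678 ± 24.9 in siblings (mean ± SD, n = 2), a log2 fold change of 1.38 ± 0.25 (SE; edgeR, Benjamini-Hochberg adjusted p = 0.000732). The name (A)n had 29489 and 32415 reads in mutant larvae and 5081 and 5427 in sibling larvae, a log2 fold change of 1.22 ± 0.26 (edgeR, adjusted p = 0.00149). Both groups kept apart for both names, and (T)n was the more read of the pair in all 4 libraries, with 58.5 and 59.9 (A)n reads per 100 (T)n reads in mutant larvae and 63.3 and 69.2 in sibling larvae. Together the 1-base units took 40.3% and 41.2% of A/T-only reads in mutants against 33.2% and 36.7% in sibling larvae.

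Alternating A and T differed by the base its name starts with. The name (AT)n had 8305 and 8924 reads in mutant larvae and 3585 and 3561 in sibling larvae, which is 9294 ± 402 CPM in mutants and 9762 ± 99.0 CPM in siblings. Its log2 fold change was -0.07 ± 0.25 (edgeR, adjusted p = 0.801). The sign of this value turned with the scaling: total gene reads without TMM factors gave 1.57 (adjusted p = 0.00613). The same tract named from its other base, (TA)n, had 7069 and 7275 reads in mutant larvae and 1280 and 1071 in sibling larvae, and rose by 1.27 ± 0.27 (edgeR, adjusted p = 0.00159). Per 100 reads of (TA)n there were 117 and 123 reads of (AT)n in mutants and 280 and 332 in siblings, with no overlap between groups (exact permutation test on log2 ratios, p = 0.333, the smallest possible). In sum, 2-base units took 8.85% and 8.93% of A/T-only reads in mutant larvae, against 13.4% and 13.7% in sibling larvae. Over the 7 lengths from 1 to 7 compared in this way, the adjusted exact p was 0.467 or more, where 0.333 is the smallest unadjusted value possible.

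Of the 8 units of 3 bases, 7 were tested and 5 rose, in the fit where 76.7% of all names rose. On the log2 scale (TAT)n rose by 1.52, (TTA)n by 1.38, (ATA)n by 1.20, (TAA)n by 1.15 and (ATT)n by 0.91, with adjusted p between 0.000837 and 0.0111 (edgeR). The call for (ATT)n was lost without mutant replicate 1 (adjusted p = 0.104) and without mutant replicate 2 (adjusted p = 0.0938). The name (AAT)n, with 7083 and 7467 reads in mutant larvae and 1979 and 2122 in sibling larvae, was at 0.49 ± 0.26 and did not pass (adjusted p = 0.104), although its groups did not overlap in CPM. That (AAT)n did not pass rested on the setting. It passed as higher with DESeq2 (0.86, adjusted p = 0.00601) and with total gene reads as the scale of edgeR (2.13, adjusted p = 0.000617). Without sibling replicate 1 it was at 0.46, and without sibling replicate 2 at 0.59. The name (TTT)n had 1302 and 1442 reads in mutant larvae but 53 and 517 in sibling larvae, or 143 and 1427 CPM in siblings, and it did not pass (0.91 ± 1.13, adjusted p = 0.495). Without sibling replicate 2 it was at 3.40, and without sibling replicate 1 it was at 0.0887, so its value rests on which sibling library is kept. The names (AA)n and (AAA)n had 5 reads and 1 read in all, and (TT)n, with 2154 and 2535 reads in mutant larvae and 424 and 330 in sibling larvae, rose by 1.297 ± 0.29 (adjusted p = 0.00201). Among units of 4 bases, (TTTA)n was the most read, with 7736 and 7907 reads in mutant larvae against 1056 and 894 in sibling larvae, and rose by 1.66 ± 0.27 (adjusted p = 0.000394).

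The largest rise belonged to (TAATAA)n. It had 1532 and 1887 reads in mutant larvae and 12 and 10 in sibling larvae, or 1844 ± 257 CPM in mutants and 30.0 ± 3.42 CPM in siblings (mean ± SD, n = 2). The groups stood far apart and the rise was 61.0-fold, 5.93 ± 0.38 on the log2 scale (edgeR, adjusted p = 2.76e-06). The same tract under its shortest unit, (TAA)n, rose by 1.15, with 5533 and 5708 reads in mutant larvae and 1022 and 973 in sibling larvae. There were 27.7 and 33.1 reads of (TAATAA)n per 100 reads of (TAA)n in mutants and 1.17 and 1.03 in siblings. Its opposite strand, (TTATTA)n, had 1332 and 1455 reads in mutant larvae and 132 and 89 in sibling larvae and rose by 2.32 ± 0.32 (adjusted p = 0.000192). Among the names with a mean of at least 20 CPM and separate groups, the next largest rises were 3.61 for (ATTTTTT)n, 3.61 for (ATTATTA)n, 3.52 for (TATATAA)n and 3.38 for (TTTTTT)n. Their reads were far fewer. The name (TATATAA)n had 122 and 114 in mutants and 4 in each sibling library, and the others had between 47 and 83 in mutants and between 1 and 3 in siblings. With so few sibling reads, these names were tested, and reached a mean of 20 CPM, through the mutant libraries. The size of their rises and their rank are therefore not independent of the count filter and of the 20 CPM limit. The call for (ATTATTA)n was lost without mutant replicate 1 (adjusted p = 0.0803) and without mutant replicate 2 (adjusted p = 0.0642), and that for (TTTTTT)n without mutant replicate 2 (adjusted p = 0.0846).

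**Figure D3:**
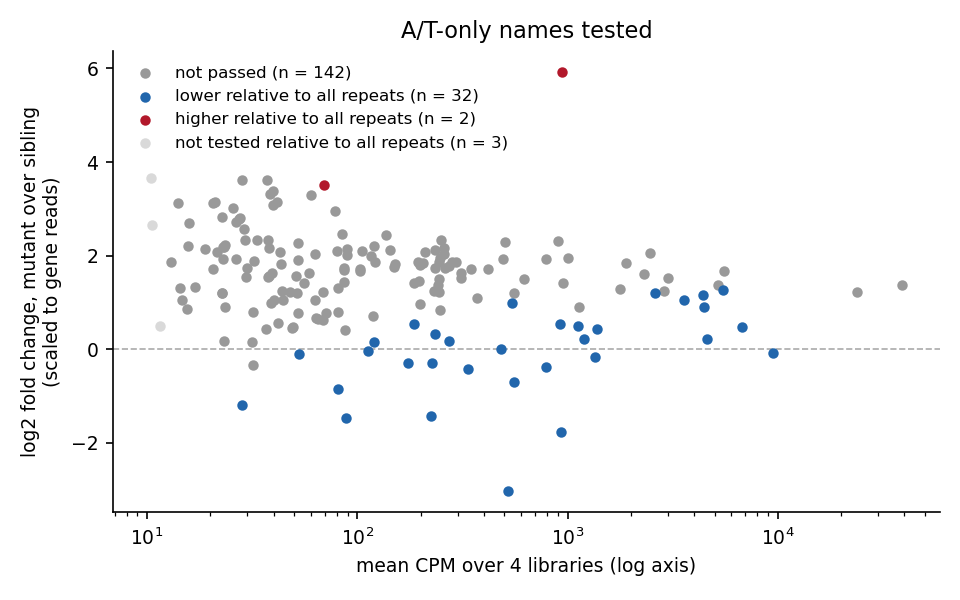
Mean CPM over the 4 libraries (horizontal axis, log scale) and log2 fold change of mutant over sibling scaled to gene reads (vertical axis) for the 179 A/T-only names tested. Colours give the call relative to all repeats: the 2 names that were higher are at 5.93 and 3.52, and names that were lower lie between -3.04 and 1.27.

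The 5 names that fell have units of 4, 6 or 7 bases, and 4 of them are described. The name (AATTAT)n had 98 and 112 reads in mutant larvae and 306 and 374 in sibling larvae, or 113 ± 9.83 CPM in mutants and 930 ± 145 CPM in siblings. It fell by 3.04 ± 0.32 on the log2 scale, 8.20-fold (edgeR, adjusted p = 7.67e-05), and both sibling libraries held more raw reads of it although their repeat totals were several times smaller. The name (TATTTA)n had 388 and 397 reads in mutant larvae and 633 and 420 in sibling larvae and fell by 1.76 ± 0.31 (adjusted p = 0.000599). The falls of (TAATTAT)n and (TAAT)n were -1.46 ± 0.49 and -0.70 ± 0.29 (adjusted p = 0.0185 and 0.0461). With total gene reads as the scale (TATTTA)n did not pass, at -0.16 (adjusted p = 0.741), while (TAATTAT)n turned to 0.10 and (TAAT)n to 0.93 without passing. Of these 4 names, only (AATTAT)n passed as lower with gene TMM factors, total gene reads, DESeq2 size factors and repeat counts as the scale. Without mutant replicate 1 the call was lost for (TAATTAT)n (adjusted p = 0.174) and for (TAAT)n (adjusted p = 0.278). Without mutant replicate 2 it was lost for both again, with adjusted p of 0.268 for (TAATTAT)n and 0.494 for (TAAT)n, and that for (TAATTAT)n was lost without sibling replicate 1 (-0.58, adjusted p = 0.222). DESeq2 did not call (TAATTAT)n (adjusted p = 0.150) or (TAAT)n (adjusted p = 0.411).

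Names that spell the same tract differed in fold change as much as A/T-only names at large. Grouped by rotation and reverse complement, the 449 names form 86 spelling groups, of which 25 had at least 2 tested names. Within those 25 the log2 fold changes spanned a median of 2.53, and their SD within groups was 1.13, next to 1.12 over all tested names. The span and both SDs include the error of each estimate, which was not taken out. Names with few sibling reads could also pass the count filter through the mutant libraries alone. The spans, the widest among them, and the SDs are therefore not independent of that filter. The widest group was that of (AATTAT)n. Its rotation (TTATAA)n had 122 and 137 reads in mutant larvae and 8 and 5 in sibling larvae and rose by 2.96 ± 0.48 (adjusted p = 0.000403). Another rotation, (TAATTA)n, rose by 1.23 ± 0.43 (adjusted p = 0.0229). Per 100 of its reads there were 117 and 119 reads of (AATTAT)n in mutants and 1700 and 3117 in siblings. In the group of (TATTTA)n, the rotation (TTTATA)n had 201 and 237 reads in mutant larvae and 29 and 20 in sibling larvae and rose by 1.82 ± 0.38 (adjusted p = 0.00149). The rotations (ATTTAT)n at 1.87, (ATATTT)n at 1.86, (TTATAT)n at 1.68 and (TATATT)n at 0.83 rose as well. In the group of (TAAT)n, the rotation (TTAA)n rose by 1.93 ± 0.31 (adjusted p = 0.000397). These rotations were chosen after their values were seen. In all, 5 groups held both a name that rose and a name that fell. When the names of each group were summed before the test, 22 of 31 groups tested rose and 0 fell, by edgeR at an adjusted p under 0.05. At an unadjusted p under 0.05 also 0 of these groups fell. In that fit 87.8% of the 1071 tested names that are not simple repeats rose and 1.49% fell. A share that also covers the other summed simple repeats was not worked out.

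**Figure D4:**
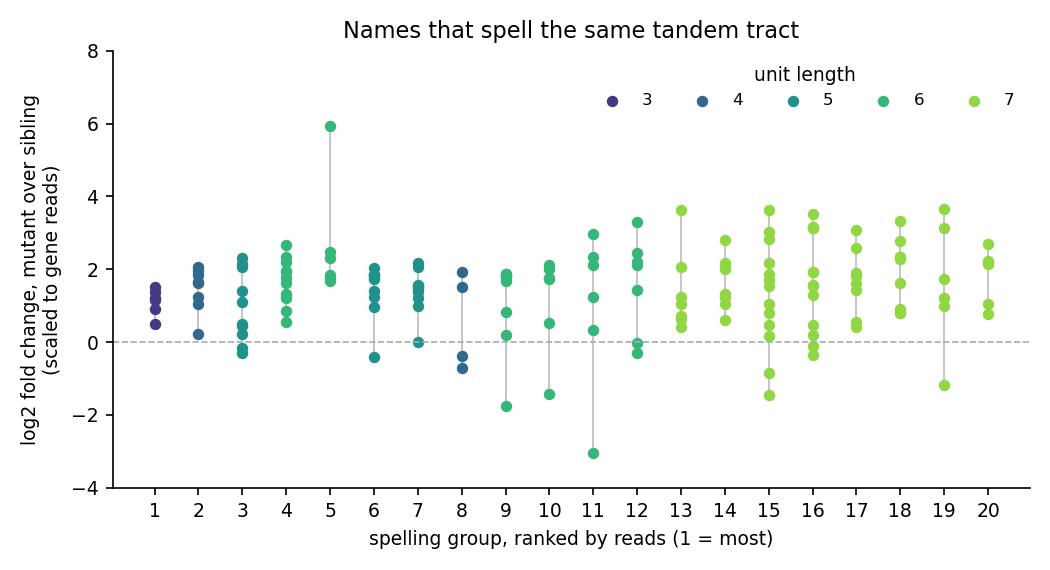
Log2 fold change of mutant over sibling, scaled to gene reads (vertical axis), of each tested name in the 20 spelling groups with at least 4 tested names (horizontal axis, ranked by reads), coloured by unit length in bases. Points on a vertical line are names of the same tract; the widest line runs from -3.04 to 2.96.

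A further kind of shared spelling is a name whose unit is a shorter unit written several times, such as (TAATAA)n for (TAA)n. There were 42 such names, 15 of them tested, and in 13 of the 15 the longer name had the larger fold change. The exceptions were (TT)n and (TTT)n beside (T)n. The name (ATAT)n, with 722 and 707 reads in mutant larvae and 125 and 121 in sibling larvae, rose by 1.20 while (AT)n stood at -0.07. The longer names held fewer reads than the short one in each of these pairs. Longer names with too few reads were not tested, and some of those tested were read mainly in mutants. One such name, (ATATAT)n, had 50 and 35 reads in mutant larvae and 2 and 3 in sibling larvae. The count of 13 is therefore not independent of the count filter. These pairs were examined after the values had been seen.

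**Figure D5:**
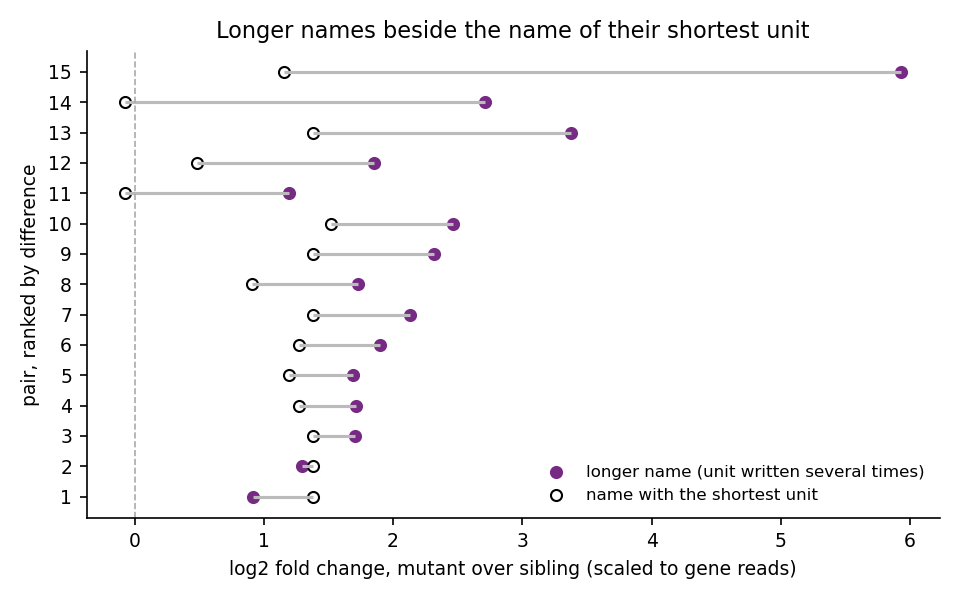
Log2 fold change of mutant over sibling, scaled to gene reads (horizontal axis), of the 15 tested names whose unit repeats a shorter one (filled) and of the name with the shortest unit (open), ranked by their difference (vertical axis). The longer name is higher in 13 pairs, by up to 4.78.

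Set against the repeats as a whole, A/T-only names leaned lower. For this the library sizes and TMM factors were taken from the repeat counts. Of 180 names tested, 33 were lower in mutants (18.3%, where 15.5% of all 3339 names were lower) and 2 were higher (1.11%, where 11.9% of all were higher), by edgeR at an adjusted p under 0.05, and 27.4% of all names passed in either direction. The median was -0.19, against 0.14 over all names and 0.12 over the other simple repeats. The 2 higher names were (TAATAA)n, at 4.16 ± 0.25 (adjusted p = 0.000349), and (TATATAA)n, at 1.77 ± 0.46 (adjusted p = 0.0384), whose call was lost without mutant replicate 1 or mutant replicate 2 (adjusted p = 0.488 and 0.374) and with DESeq2 (1.85, adjusted p = 0.0594). The smallest p among lower names belonged to (TATTTA)n at -3.51 ± 0.17 (adjusted p = 0.000153), (AATTAT)n at -4.85 ± 0.31 (adjusted p = 0.000389) and (AATA)n at -1.54 ± 0.11 (adjusted p = 0.000607). The well-read (AT)n and (AAT)n were also lower, at -1.87 ± 0.16 and -1.32 ± 0.19 (adjusted p = 0.000972 and 0.00584), while the poly(T) and poly(A) names did not pass, at -0.41 and -0.59 (adjusted p = 0.071 and 0.0541). Of the 33 lower names, 6 had risen relative to gene reads, 5 had fallen, 21 had not passed and 1 had not been tested.

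The split of these calls rested on the scale and on single libraries. Scaled by total repeat reads with no TMM factors, 29 A/T-only names of 176 were higher (39.0% of all names) and 20 lower (9.69% of all names). Their median was then 0.44, against 0.82 over all names. A change of scale moves all names nearly alike, so the same order of these medians on both scales is not a separate check. Without mutant replicate 1, 1 was higher (4.27% of all) and 18 lower (10.5% of all) of 135 tested, and without mutant replicate 2, 1 was higher (3.98% of all) and 16 lower (10.4% of all) of 135. Without sibling replicate 1, 14 were higher (19.2% of all) and 54 lower (18.9% of all) of 194 tested, and without sibling replicate 2, 11 were higher (22.2% of all) and 53 lower (18.3% of all) of 194.

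Units with more T than A were the more read: 37.6% and 38.0% of the reads in units of unequal content fell on A-rich units in mutants, against 40.5% and 42.5% in siblings (exact permutation test, p = 0.333, the smallest possible). Of the 53 A-rich, 102 T-rich and 24 balanced names tested, 34, 74 and 15 rose and 0, 2 and 3 fell, where 76.7% of all repeat names rose and 4.25% fell. They had median log2 fold changes of 1.46, 1.62 and 1.39. In the 51 exact reverse-complement pairs with both names tested, the A-rich name had the larger fold change in 25, and the pair differed by a median of 0.78. The named library kit (TruSeq, the older unstranded protocol) does not mark strand, so these spellings do not say which strand was transcribed.

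Short motifs were looked for in the units written in tandem, on both strands. AATAAA, the core of the polyadenylation signal, is found in 121 of the 449 units (26.9%) and in 2.10% of all simple repeat units. TATAAA, the core of the TATA box, is in 72 (16.04%, and 1.40% of all), ATTTA, the pentamer of AU-rich elements in messenger RNA, in 164 (36.5%, and 4.70% of all), and ATATAT in 57 (12.7%, and 1.53% of all). Each of these motifs holds only A and T, so their larger share among A/T-only units follows from how the names were chosen. A unit can hold more than one of them, and their matches can overlap. Tested names with AATAAA had a median log2 fold change of 1.33 (45 names), against 1.60 without it, and 29 of the 45 rose and 0 fell, in the fit where 76.7% of all names rose and 4.25% fell (edgeR, adjusted p under 0.05). Of the names with TATAAA 16 of 22 rose and 1 fell, of those with ATTTA 39 of 53 rose and 1 fell, and of those with ATATAT 12 of 19 rose and 0 fell. The medians with and without the motif were 1.81 and 1.53 for TATAAA, 1.56 and 1.56 for ATTTA, and 1.57 and 1.55 for ATATAT.

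Of the 449 names, 160 had no read in any library, and the 270 that were not tested held 820 reads in all. Units of 8 to 10 bases make up 204 names and none of them was tested. They held 124 and 125 reads in mutant larvae and 15 and 18 in sibling larvae. In 70 names reads were found in mutants only and in 8 in siblings only. With a floor of 3 counts, no read still leaves room for 3.25 and 3.22 CPM in mutant larvae and for 8.11 and 8.28 CPM in sibling larvae, so these names do not show presence in one group alone.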

How the data were processed

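Ribosome-depleted total RNA (1000 ng) from pools of 10 to 20 larvae was sequenced in 75-base reads, per the labels' protocols. The submitters' processing notes name TopHat2, HTSeq, DESeq2 and GRCz10, without versions. The authors deposited whole-number read counts per gene and per repeat name; how reads with several matches were handled is not given in the sources used here. For all names, repeat counts were tested with edgeR 4.0.16 (robust quasi-likelihood fit, limma 3.58.1, R 4.3.3), after filterByExpr, with Benjamini-Hochberg adjustment at 0.05. Library sizes and TMM factors came from gene counts, and in a second fit from repeat counts. Single values were compared by exact two-sided permutation over libraries, which cannot go below 0.333. DESeq2 1.42.0, other scalings and filters, summed spellings and leaving out each library were the alternatives.

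Named were the units of 1 to 3 bases, the 5 most read names, the 5 largest and 5 smallest changes that passed with at least 20 CPM and separate groups, up to 3 names in each direction by smallest p relative to repeats, and the 2 nearest the median; others were chosen after their values were seen. The members and lists were chosen with earlier results of these data known. Replicate libraries differed beyond sampling noise (chi-square per degree of freedom over A/T-only names 1.91 for mutants and 6.66 for siblings), so each was kept. Sibling columns are headed ABNYU and mutant columns 272. One of the names that fell is not reported here.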

Additional observations from a re-analysis of the deposited data

How the results depend on the processing

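The 128 of 179 A/T-only names that changed relative to gene reads (81.0% of all names) numbered 110 of 179 with DESeq2 (72.9% of all), 179 of 186 with total gene reads (95.2%), 93 of 289 with no count filter (25.2%) and 134 of 186 with at least 10 reads in 2 libraries (80.3%). Summing rotations and reverse complements left 22 of 31, and summing by shortest unit, chosen after seeing the data, left 15 of 23, with fewer units to test. In both of these fits 89.3% of the names that are not simple repeats changed. With repeat counts as the scale 35 of 180 changed (27.4% of all), 33 of them lower. Leaving out a library gave 58 to 147. The median of 1.56 was 1.93 with DESeq2, 3.23 with total gene reads, 1.86 with no filter, 1.26 and 1.12 with the summed spellings, -0.19 with repeat counts and 1.52 to 1.80 with a library left out; the medians of all names were 2.36 with DESeq2 and 3.66 with total gene reads. Relative to all repeats, the 35 changed names became 49 with total repeat reads, 14 and 12 with the summed spellings, and 17 to 68 with a library left out. That median of -0.19 became 0.44 with total repeat reads, 0.0923 with no filter, -0.55 and -0.70 with the summed spellings, and -0.49 to -0.0831 with a library left out. The difference in the share of all repeat reads ran from -0.224 to 0.144 points with a library left out. Where 1 library of a group was left, it was assumed to vary like the other group. The sibling replicates differed more than the mutant replicates (chi-square per degree of freedom 6.66 against 1.91 over A/T-only names). Calls made without a sibling library can therefore be too many. Relative to all repeats, 49 of 176 A/T-only names changed with total repeat reads, where 48.7% of all names changed. With the summed spellings 14 of 32 and 12 of 24 changed. In both of those fits 35.6% of the names that are not simple repeats changed. For each library left out, the numbers tested and the shares of all names that were higher and lower are given above. Those shares of all names moved with the library left out too. The cause of these shifts was not tested.

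Among single names, (AT)n turned to 0.30 with DESeq2, 1.57 with total gene reads and, with a library left out, ran from -0.0449 to 0.0841 (0.02 without mutant replicate 2). With total gene reads (TAATTAT)n turned to 0.10, (TAAT)n to 0.93 and a further name to 0.18. With repeat counts as the scale (A)n turned to -0.59, (AAT)n to -1.32, (ATA)n to -0.55, (ATT)n to -0.86, (T)n to -0.41, (TA)n to -0.51, (TAA)n to -0.63, (TAT)n to -0.25, (TT)n to -0.48, (TTA)n to -0.39, (TTT)n to -1.02, (TTTA)n to -0.11, (AATA)n to -1.54, (TTAAA)n to -0.17 and (ATTAATA)n to -0.19.

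With the replicate number as a block, 99 of 179 names changed relative to gene reads, where 65.9% of all names changed. Relative to all repeats 33 of 180 changed, where 25.3% of all names changed. Deviations of same-numbered libraries correlated at -0.02 over 2 pairs and 3366 names, which does not show whether a number marks a shared clutch. The block was therefore kept as an alternative.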
